A study of Sus scrofa with 21 samples.

Results

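The collagens and extracellular matrix genes described here are 45 genes listed by symbol, from fibrillar collagens to matrix proteases and the receptors of platelet-derived growth factor (PDGF). A gene was matched when its identifier in the files carried that pig gene name. Of the 45 listed genes 41 were matched, among 18661 genes in the files, and COL4A1, LAMA2, MMP3 and TIMP2 are not analysed here. The RNA came from the distal part of the small intestine of 21 piglets, Danish Landrace/Yorkshire by breed and aged 24 to 25 days. Of these, 10 controls had been raised on a milk replacer, while 11, the starch group, had been raised on that replacer plus wheat. Each library was 1 piglet, and the labels name no sex, litter or batch.

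The extracellular matrix of the gut is laid down mainly by fibroblasts, smooth muscle and endothelial cells. Fibrillar collagens give the submucosa its tensile strength, and a basement membrane of type IV collagen, laminins, nidogen and perlecan underlies epithelium, vessels and muscle cells. Lysyl oxidases cross-link the fibres, metalloproteinases cut them and tissue inhibitors of metalloproteinases restrain the proteases, so that matrix is renewed during growth and repair. PDGF receptors mark many of the mesenchymal cells that make the matrix.

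Libraries held 6719264 to 8610458 expected counts each, and all 41 genes passed the filter on low counts that left 13127 genes for testing. Epithelial markers of the labelled tissue were present in every piglet, with 9 of 11 listed genes matched and a summed level of 4780 to 7757 CPM (counts scaled to library size and composition) in control and 3666 to 8300 CPM in starch piglets. Absorptive enterocyte markers stood apart in 3 libraries. Their summed level was 339.1 CPM in control 5, 287.9 CPM in control 8 and 252.2 CPM in starch 3, against 8097 to 44590 CPM in the other 18 piglets. The epithelial marker sums of these 3 libraries, 4780, 7707 and 5762 CPM, lay within the 3666 to 8300 CPM of the other 18. Single genes of that list differed from the sum. VIL1 had 161.9, 180.8 and 171.3 CPM in these 3 libraries, against 724 to 1728 CPM in the other 18. KRT8, the most abundant of the list, had 2006, 4002 and 3023 CPM, against 1047 to 3312 CPM. For each role, counts or fold changes of some genes are given with and without them. The tissue is bulk, so fewer cells of a type and less RNA per cell cannot be told apart.

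The design asks whether wheat in the replacer alters transcript levels in the gut. Of the 41 matrix genes 0 passed the test of diet (edgeR quasi-likelihood test, Benjamini-Hochberg adjustment over all genes, threshold 0.05), beside 0.0% of the 13127 genes tested. The smallest adjusted p of a matrix gene was 0.9998. At an unadjusted p of 0.05 the count was also 0 of 41, where 1.33% of all genes passed, and DESeq2 likewise called 0 genes with 191 of all genes below an unadjusted 0.05. For 0 of 41 genes did the ranges of the diets fail to overlap, as for 0.0% of all genes tested.

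Fold changes are log2, starch minus control. Of the 41 genes 32 had a fold change below 0 and 9 above, 78% below against 48.9% of all genes tested. The median was -0.08, beside 0.00 over all genes, and the values ran from -0.60 for MMP1 to 0.07 for SPARC. With upper-quartile scaling 37 were below 0 and 4 above. This lean rested on single piglets. Without control 5 there were 19 below and 22 above 0, with a median of 0.02. Without control 5, control 8 and starch 3 there were 18 below and 23 above, with a median of 0.02. Without starch 3 alone 40 were below 0 and the median was -0.22. In that fit 4 matrix genes and 302 of all 13073 tested had an unadjusted p below 0.05, and 0 genes passed the adjusted threshold.

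**Figure D1:**
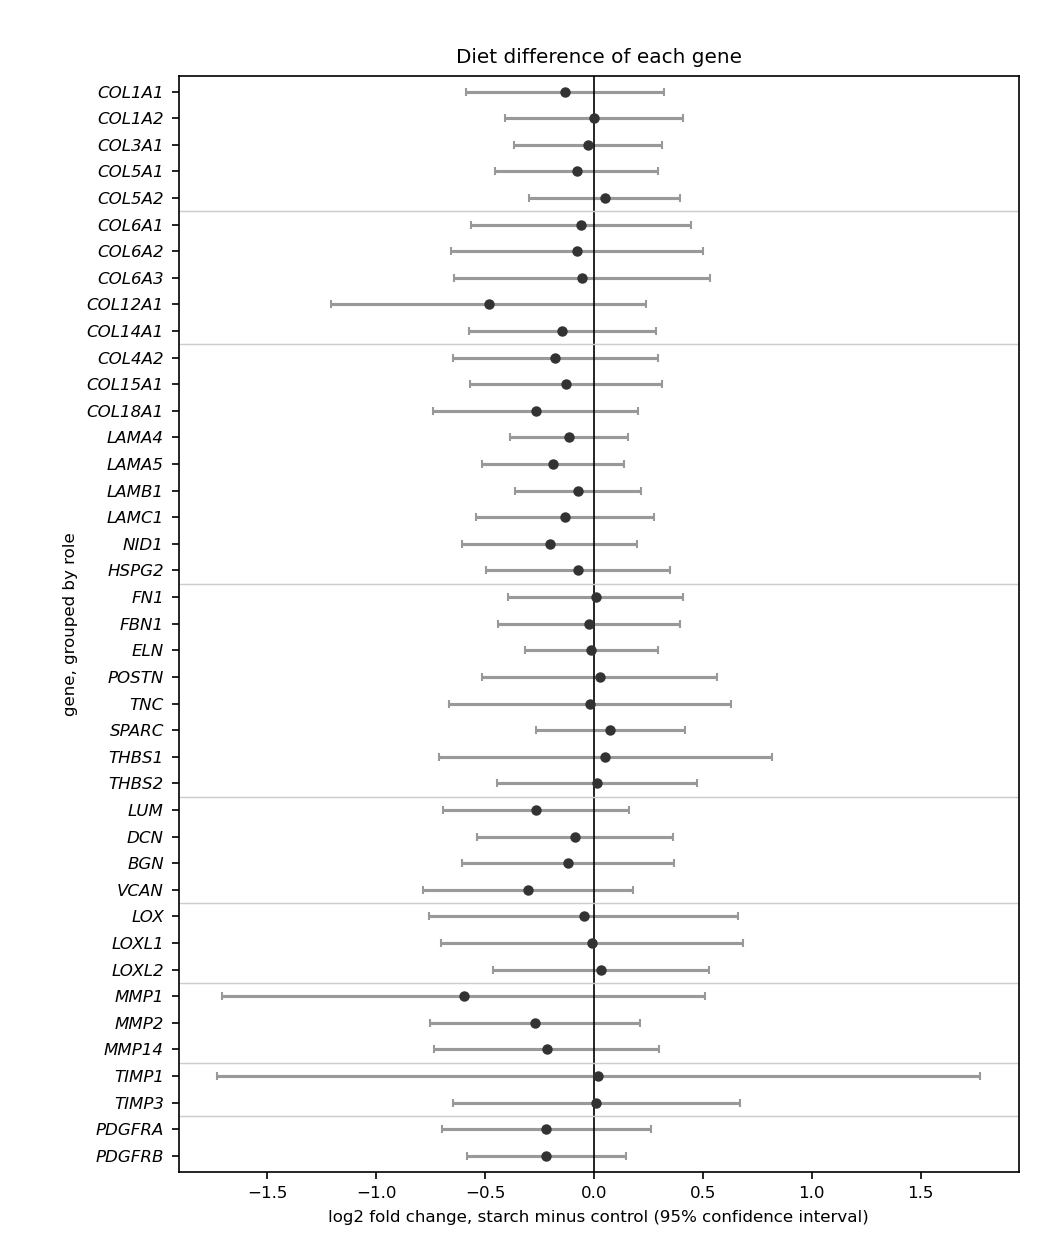
Log2 fold change of each matrix gene, starch minus control, with its 95% confidence interval from the edgeR fit over 21 piglets; genes are grouped by role. Every interval spans 0, and those of TIMP1 and MMP1 are the widest.

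Fibrillar collagens were among the most abundant transcripts of the set, and their ranges overlapped widely between the diets. COL3A1, which encodes the type III collagen of pliable tissue, had the highest mean level of the 41 genes at 814 FPKM (fragment counts scaled for length and depth). It ran from 2229 through a median of 2891 to 4884 CPM in control and from 2185 through 3078 to 4869 CPM in starch piglets. The ranges all but coincided, and the fold change was -0.03 (95% interval -0.37 to 0.31).

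The chains of type I collagen, the main load-bearing fibre, followed at mean levels of 498 FPKM for COL1A1 and 269 FPKM for COL1A2. COL1A1 ran from 1437 to 3802 CPM in control and from 1030 to 3547 CPM in starch piglets, with a fold change of -0.13 (95% interval -0.59 to 0.32). That of COL1A2 was 0.00 (-0.41 to 0.41). Type V collagen, which sets fibril diameter, was rarer, with mean levels of 39.7 FPKM for COL5A1 and 44.3 FPKM for COL5A2. COL5A2 ran from 102.3 through a median of 193.5 to 272.8 CPM in control and from 136.9 through 182.5 to 267.6 CPM in starch piglets. Its fold change of 0.05 (SE 0.17, unadjusted p = 0.773, adjusted p = 0.9998, edgeR) was far within the spread between piglets. Of the 5 fibrillar collagens 4 lay below 0, with a median of -0.03, and without control 5, control 8 and starch 3 2 lay below and 3 above 0.

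Type VI collagen forms beaded microfilaments next to cells, and types XII and XIV sit on the surface of fibrils. COL6A1 had the highest level of this group, a mean of 119.5 FPKM, but its gene model in the files spans only 810 or 882 coding bases, so this FPKM rests on a short length. COL6A1 ran from 48.6 through a median of 74.8 to 163.4 CPM in control and from 45.7 through 86.3 to 183.2 CPM in starch piglets. The starch range enclosed the control range. Its fold change was -0.06, that of COL6A2 -0.08, that of COL6A3 -0.06 and that of COL14A1 -0.15. All 5 genes of this group, COL12A1 included, had fold changes below 0. Without control 5, control 8 and starch 3, 2 lay below and 3 above 0, and COL6A3 had 0.17.

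COL12A1 had the smallest p of all 41 genes. It ran from 27.4 through a median of 81.8 to 347 CPM in control and from 29.3 through 71.5 to 146.2 CPM in starch piglets. The control range enclosed the starch range, and the highest control piglet, control 5, stood well above all others. The fold change was -0.48 (SE 0.35, 95% interval -1.21 to 0.24, unadjusted p = 0.179, adjusted p = 0.9998, edgeR). Without control 5 it was -0.03.

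Basement membrane genes had fold changes below 0 in 9 of 9 cases, with a median of -0.13 and a range of -0.27 to -0.07, but without control 5, control 8 and starch 3 only 6 were below 0 and the median was -0.04. COL4A2, a chain of the type IV network, had the highest level, a mean of 105.4 FPKM. It ran from 372 through 450.3 to 1049 CPM in control and from 329.5 through 458.4 to 1055 CPM in starch piglets. The medians differed little, and the top of both ranges was set by libraries low in absorptive enterocyte markers. The fold change was -0.18 (95% interval -0.65 to 0.29).

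COL18A1 and COL15A1, which carry endostatin-type ends, had fold changes of -0.27 and -0.13. Among laminin chains LAMA4, the alpha chain of vessels and muscle, had a mean level of 34.5 FPKM, and LAMA5, an alpha chain of epithelial basement membrane, one of 7.38 FPKM. Their fold changes were -0.12 and -0.19, beside -0.07 for LAMB1 and -0.13 for LAMC1. NID1, the linker of laminin and type IV collagen, had -0.20, and HSPG2, perlecan, -0.07. LAMA4 and LAMB1 varied least of the 41 genes, with an SD of log2 CPM over the 21 piglets of 0.28 and 0.30.

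**Figure D2:**
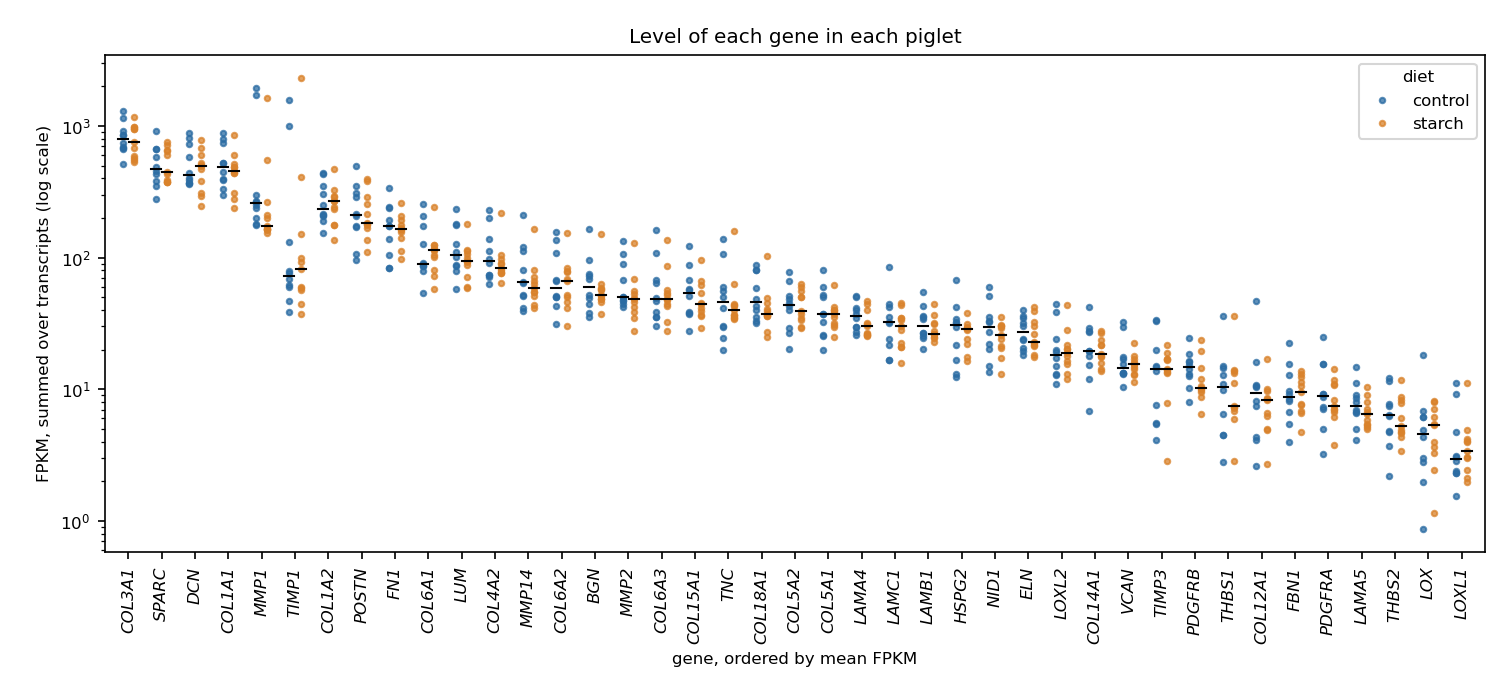
FPKM of each matrix gene in each piglet on a log scale, ordered by mean, with 1 point per piglet and a bar at the median of each diet. COL3A1 leads at a mean of 814 FPKM and LOXL1 is last at 4.14 FPKM; the diets overlap for every gene.

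Glycoproteins and elastic fibre genes had 5 fold changes above and 3 below 0, with a median of 0.01. SPARC, a collagen-binding glycoprotein, was the second most abundant gene of the set with a mean of 525 FPKM. It ran from 269.8 through 379.3 to 621.6 CPM in control and from 311.3 through 410.1 to 665.6 CPM in starch piglets. Both ranges overlapped from 311.3 to 621.6 CPM. Its fold change of 0.07 (SE 0.17, 95% interval -0.27 to 0.42, unadjusted p = 0.658, adjusted p = 0.9998, edgeR) was the highest of all 41 genes.

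THBS1, thrombospondin 1, which can release latent transforming growth factor beta, varied widely. It ran from 11.3 through 35.4 to 100.2 CPM in control and from 11.7 through 28.4 to 118.2 CPM in starch piglets. The upper ends were control 5 and starch 3, and the next piglet, control 8, had 52.2 CPM. Its fold change was 0.05 (SE 0.37, unadjusted p = 0.888, adjusted p = 0.9998, edgeR), and it was -0.28 without starch 3 and 0.34 without control 5.

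The adhesive fibronectin gene FN1 had a mean of 171.7 FPKM and a fold change of 0.01 (95% interval -0.40 to 0.41). POSTN, periostin, had 233.9 FPKM and 0.03, and THBS2 had 6.53 FPKM and 0.01. Fold changes of the elastic fibre genes were -0.01 for ELN, elastin, and -0.02 for FBN1, fibrillin 1, which forms the microfibrils elastin is deposited on. TNC, tenascin C, a glycoprotein of remodelling matrix, had a fold change of -0.02 but a 95% interval of -0.67 to 0.63, and it spread widely among piglets. TNC had 645.4 CPM in control 5, 632.4 CPM in control 8 and 862.7 CPM in starch 3, while the other 18 piglets had 131.7 to 395 CPM. Without these libraries the fold change of TNC was 0.15 (95% interval -0.22 to 0.51), and all 8 glycoprotein and elastic fibre genes lay above 0.

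All 4 proteoglycan genes had fold changes below 0, with a median of -0.19, and 3 of 4 did so without control 5, control 8 and starch 3, with a median of -0.02. DCN, decorin, a small leucine-rich proteoglycan that binds collagen fibrils, had the highest level at a mean of 508 FPKM. It ran from 349.6 through 466.7 to 944.5 CPM in control and from 247.8 through 439.5 to 762.4 CPM in starch piglets, with a fold change of -0.09. The ranges overlapped from 349.6 to 762.4 CPM. LUM, lumican, of the same family, ran from 65.2 through 106.2 to 182.7 CPM in control and from 61.3 through 97.03 to 165.6 CPM in starch piglets. Its fold change was -0.27 (SE 0.21, 95% interval -0.70 to 0.16, unadjusted p = 0.208, adjusted p = 0.9998, edgeR).

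VCAN, the large hyaluronan-binding versican, ran from 24.8 through 47.7 to 129.4 CPM in control and from 32.5 through 45.4 to 77.2 CPM in starch piglets. The control range enclosed the starch range. The fold change was -0.30 (SE 0.23, 95% interval -0.78 to 0.18, unadjusted p = 0.208, adjusted p = 0.9998, edgeR), and -0.09 without control 5. BGN, biglycan, had a mean of 65.0 FPKM and a fold change of -0.12.

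Among cross-linking oxidases were the least abundant genes of the set. LOXL1, which acts on elastin, had a mean of 4.14 FPKM and LOX, lysyl oxidase, one of 5.23 FPKM. LOXL2, which acts on type IV collagen, had 21.1 FPKM. LOX ran from 1.198 through 5.48 to 17.6 CPM in control and from 1.62 through 5.84 to 9.49 CPM in starch piglets, so that control piglets held both extremes. Its fold change was -0.05 (95% interval -0.76 to 0.66). LOXL2 ran from 28.7 through 38.3 to 91.2 CPM in control and from 25.1 through 45.2 to 94.6 CPM in starch piglets. Its fold change was 0.03 (SE 0.24, unadjusted p = 0.890, adjusted p = 0.9998, edgeR), and it was -0.04 when the smooth muscle score was added to the fit. That of LOXL1 was -0.01. Without control 5, control 8 and starch 3 the fold changes were 0.18 for LOX, 0.22 for LOXL2 and 0.30 for LOXL1.

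Metalloproteinases had 3 fold changes below 0, with a median of -0.27. MMP1, the interstitial collagenase that cuts fibrillar collagen, had a mean of 448 FPKM but a median of 209.2 FPKM, since 3 piglets stood far above the rest. It ran from 245 through 344.3 to 2762 CPM in control and from 188.8 through 278.7 to 2097 CPM in starch piglets. Control 8 had 2762, starch 3 had 2097 and control 5 had 1885 CPM, and starch 4 came next with 811.9 CPM. All other piglets of both diets lay between 188.8 and 375.2 CPM. The fold change was -0.60 with a 95% interval of -1.71 to 0.51. It rested on the high piglets, being -0.05 without control 8, -0.33 without control 5, -1.22 without starch 3 and -0.03 (95% interval -0.52 to 0.46) without all of these. MMP2, gelatinase A, had -0.27 and MMP14, the membrane protease that activates MMP2, -0.22, and without the same piglets -0.20 and -0.07.

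Of the inhibitors TIMP1 varied more than any other of the 41 genes. Its SD of log2 CPM over 21 piglets was 1.73, and the highest piglet exceeded the lowest 60.0-fold. Over the 18 piglets other than control 5, control 8 and starch 3 the SD was 0.87 and the range 11.96-fold. TIMP1 ran from 20.7 through 40.1 to 921.5 CPM in control and from 20.8 through 48.8 to 1241 CPM in starch piglets. Starch 3, control 8 (921.5 CPM), control 5 (453.1 CPM) and starch 4 (247.4 CPM) were highest, and starch 11 followed with 100.2 CPM. The fold change was 0.02, and its 95% interval of -1.73 to 1.77 leaves the diet difference of this gene poorly determined. It was -1.40 without starch 3, 0.30 without control 5 and 0.69 (95% interval -0.18 to 1.57) without control 5, control 8 and starch 3. TIMP3, the inhibitor bound to matrix, had a fold change of 0.01 and another order of piglets, led by control 9 with 17.02 CPM.

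The PDGF receptor genes had fold changes of -0.22 each. Without control 5, control 8 and starch 3 these were -0.25 for PDGFRB and -0.09 for PDGFRA. PDGFRB, found on pericytes and other mural cells, had a mean of 13.5 FPKM. It ran from 26.1 through 48.4 to 64.5 CPM in control and from 25.1 through 35.8 to 73.4 CPM in starch piglets. The starch median lay below the control median, but the starch range enclosed the control range (SE 0.18, 95% interval -0.58 to 0.15, unadjusted p = 0.226, adjusted p = 0.9998, edgeR). PDGFRA, found on fibroblasts below the epithelium, had a mean of 9.5 FPKM. PDGFB and PDGFA, ligands of these receptors, had fold changes of 0.09 and 0.04.

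The spread across piglets exceeded the difference between the diet means. Together the matrix genes took 0.789% to 2.66% of all expected counts. The mean share was 1.5% ± 0.607 among the controls (SD, n = 10), and 1.34% ± 0.445 on starch (SD, n = 11). Without control 5, control 8 and starch 3 the means were 1.27% ± 0.387 (SD, n = 8) and 1.22% ± 0.238 (SD, n = 10). The lowest share was that of control 6 and the highest were those of control 5 with 2.66%, starch 3 with 2.5% and control 8 with 2.2%. Both diets thus held piglets at either end. For 34 of the 41 genes the highest piglet was control 5 (17 genes), starch 3 (13 genes) or control 8 (4 genes), and for 15 genes exactly these were the 3 highest. These 15 were COL6A3, COL4A2, COL15A1, LAMB1, FN1, TNC, THBS1, BGN, VCAN, LOXL1, LOXL2, MMP1, MMP2, MMP14 and TIMP1. Control 6 was lowest for 15 genes. The same counts were not made over all genes tested, so they do not set the matrix genes apart from other genes.

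Some genes had another order. COL3A1 was highest in control 4 with 4884 CPM, starch 6 with 4869 CPM and control 9 with 3873 CPM. It had 2890 CPM in control 5, 3304 CPM in control 8 and 3499 CPM in starch 3, all within the range of the other 18 piglets. ELN, LAMA4 and SPARC were also highest in starch 6, and POSTN in starch 4 with 950.7 CPM. NID1 separated the libraries low in absorptive enterocyte markers, with 175.9 CPM in control 5, 97.95 CPM in starch 3 and 54.1 CPM in control 8, near both ends of its range.

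**Figure D3:**
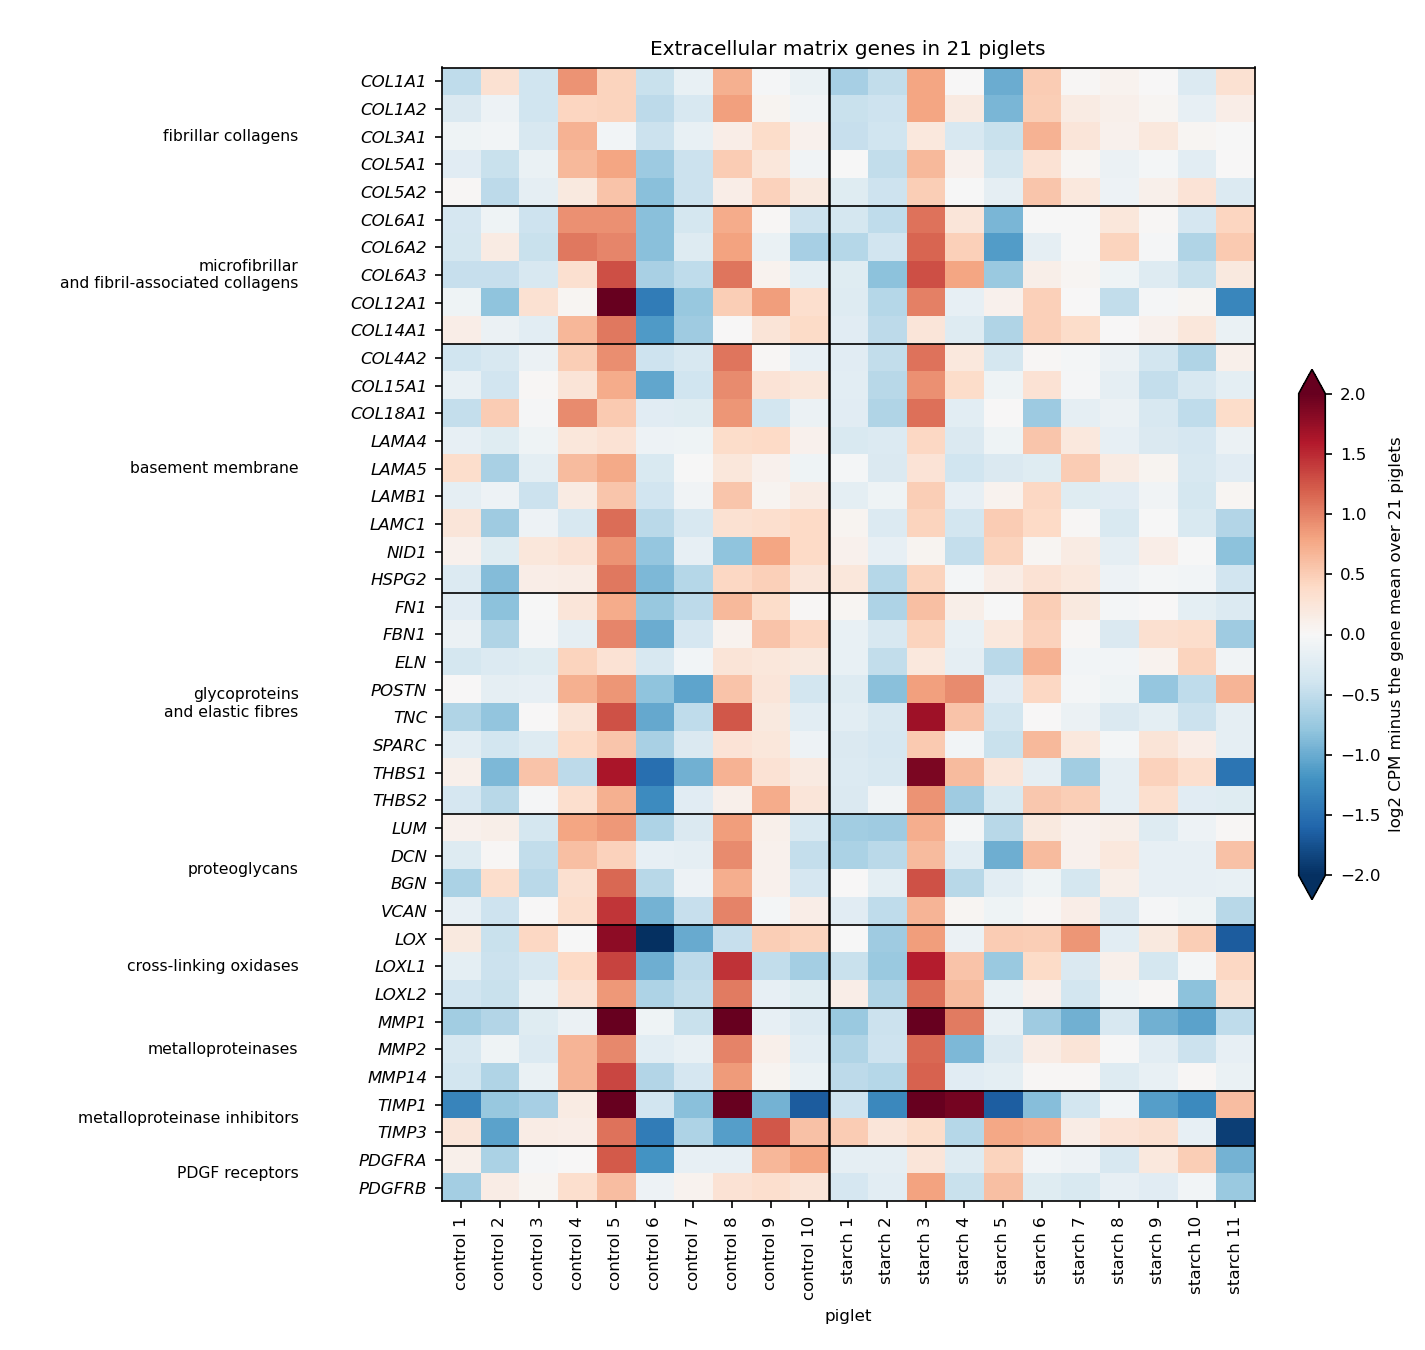
Log2 CPM of each matrix gene (rows, grouped by role) in each of 21 piglets (columns, by diet), minus the mean of the gene; red is above and blue below the mean, and the colours saturate at 2. Control 5, control 8 and starch 3 are red in most rows, control 6 is blue in most rows, and no row separates the diets.

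Markers of other cells moved with these piglets. Of the absorptive enterocyte markers 9 of 10 were matched, with a summed level of 287.9 to 44590 CPM in control and 252.2 to 37410 CPM in starch piglets. The most abundant were APOA1, at 106.6 CPM in control 5, 102.7 CPM in control 8 and 50.1 CPM in starch 3 against 1061 to 16550 CPM in the other 18, then ANPEP and APOB. Granulocyte and acute inflammation genes, 9 of 13 matched, summed to 12.95 to 663.2 CPM in control and 18.6 to 678.2 CPM in starch piglets. They gave 235.6 CPM in control 5, 663.2 CPM in control 8 and 678.2 CPM in starch 3, and at most 76.1 CPM elsewhere.

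Macrophage markers, 10 of 10 matched, summed to 375.3 to 2455 CPM in control and 427 to 3432 CPM in starch piglets, and the same libraries had 2444, 2455 and 3432 CPM against at most 1585 CPM elsewhere. Smooth muscle markers, 10 of 10 matched, summed to 8851 to 38630 CPM in control and 6501 to 24670 CPM in starch piglets, with 22090 CPM in control 5, 38630 CPM in control 8 and 24670 CPM in starch 3 against at most 22220 CPM elsewhere. Fibroblast markers, 10 of 12 matched, summed to 99.68 to 220.3 CPM in control and 94.36 to 180.3 CPM in starch piglets. They gave 220.3 CPM in control 5, the highest, while control 8 with 137.9 CPM and starch 3 with 157.7 CPM lay among the other piglets. Much of the sum in control 5 was 1 gene, GREM1, with 112.3 CPM there. GREM1 had 27.05 CPM in control 8, 44.05 CPM in starch 3 and at most 29.73 CPM elsewhere. Pericyte markers, 6 of 6 matched, summed to 104.4 to 273 CPM in control and 118.2 to 240.5 CPM in starch piglets. Control 5, control 8 and starch 3 had 273, 258.8 and 240.5 CPM, against at most 208.3 CPM elsewhere. Endothelial markers, 10 of 12 matched, gave 417.6, 370.8 and 435.4 CPM there and at most 370.6 CPM elsewhere. Enteric glia and neuron markers, 5 of 6 matched, gave 54.27, 73.59 and 66.07 CPM there and at most 53.11 CPM elsewhere. B-cell markers of these libraries lay among the other piglets. Mesothelial markers were at or below 1.16 CPM in every piglet, with 1 of 4 matched. No matched marker of these lists was at 0 in all piglets. The part of these cells in the matrix gene levels was not tested.

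**Figure D4:**
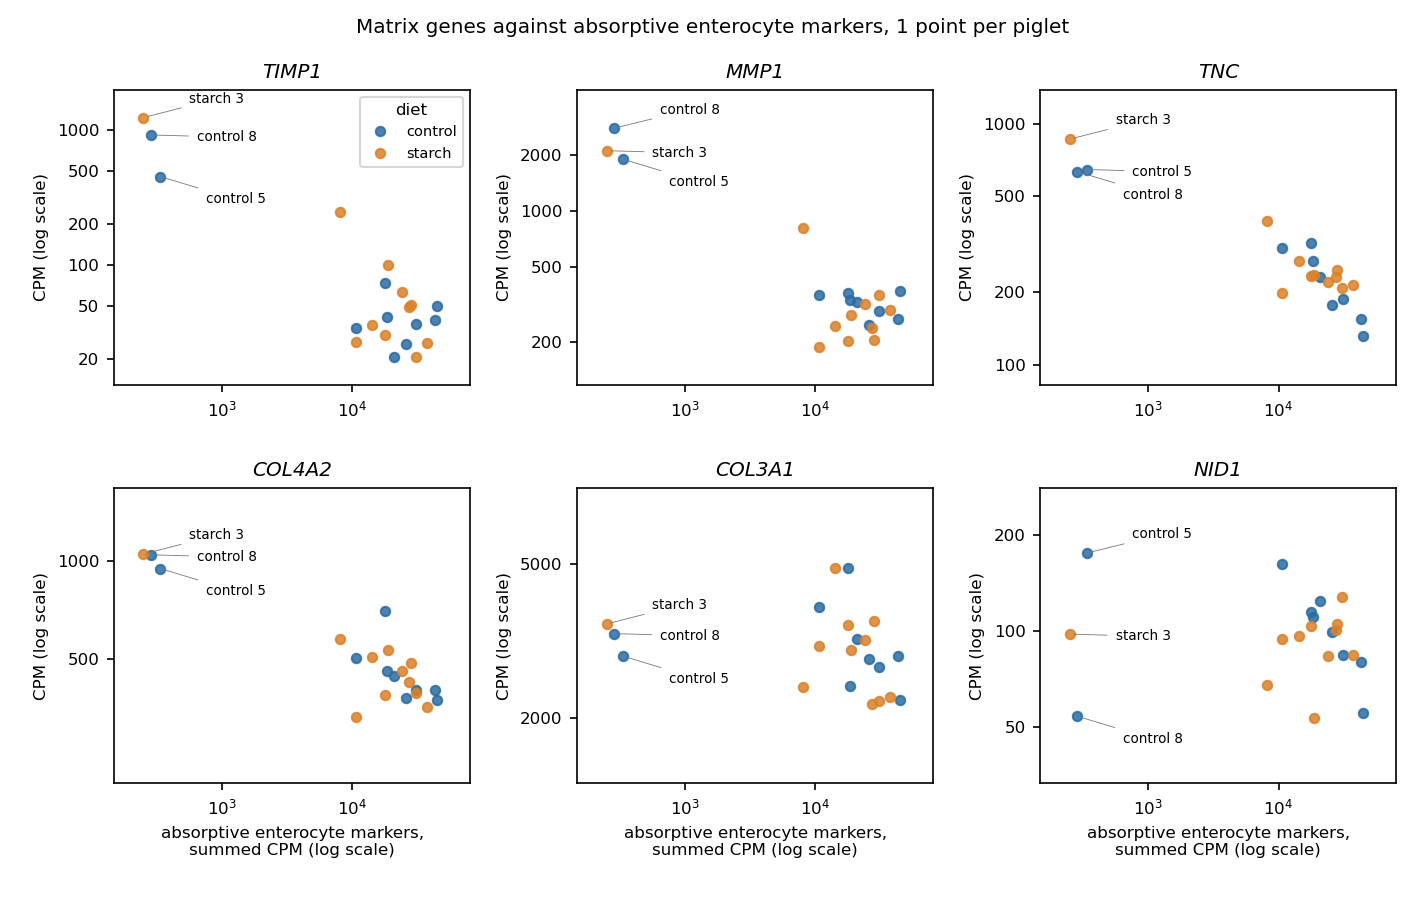
CPM of TIMP1, MMP1, TNC, COL4A2, COL3A1 and NID1 against the summed CPM of absorptive enterocyte markers, both on log scales, with 1 point per piglet. Control 5, control 8 and starch 3, at 252.2 to 339.1 CPM of markers, are highest for TIMP1, MMP1, TNC and COL4A2, lie within the range of the others for COL3A1 and are spread out for NID1.

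Most pairs of matrix genes correlated positively across piglets. Over the 820 pairs of genes the median Pearson r of log2 CPM was 0.62 over 21 piglets and 0.42 over the 18 piglets other than control 5, control 8 and starch 3. Over those 18 piglets r was below 0 for 120 pairs. Pairs share library and scaling, and pairs of other genes were not examined beside them, so these values are descriptions. All values of r for pairs of matrix genes that follow are over those 18 piglets. Pairs of the same role had a median of 0.50 and pairs of different roles 0.41. The highest was 0.96 for COL6A1 and COL6A2, chains of the same trimer, and COL1A1 and COL1A2, which also share a trimer, had 0.91. Other high pairs crossed roles, as HSPG2 with FN1 (0.95), COL12A1 with FBN1 (0.93), FBN1 with PDGFRA (0.92) and COL12A1 with LOX (0.91).

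The correlations were not uniform. COL1A1 went with DCN (0.90), COL1A2 and the COL6 genes, while its r was -0.31 with LAMC1. NID1 went with TIMP3 (0.89), PDGFRA (0.88) and COL12A1 (0.88). TIMP1 stood opposite to these, with -0.55 for NID1, -0.53 for LAMC1, -0.53 for PDGFRA and -0.48 for TIMP3, yet had 0.78 with COL6A3. MMP1 and TIMP1 had the lowest median r with the other genes, 0.01 each, and their r with one another was 0.60. Among the piglets compared, starch 4 was highest for both genes. Starch 4 had 811.9 CPM of MMP1, against at most 375.2 CPM in the others. Its TIMP1 level was 247.4 CPM, against at most 100.2 CPM. Whether the r of 0.60 holds without starch 4 was not tested.

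**Figure D5:**
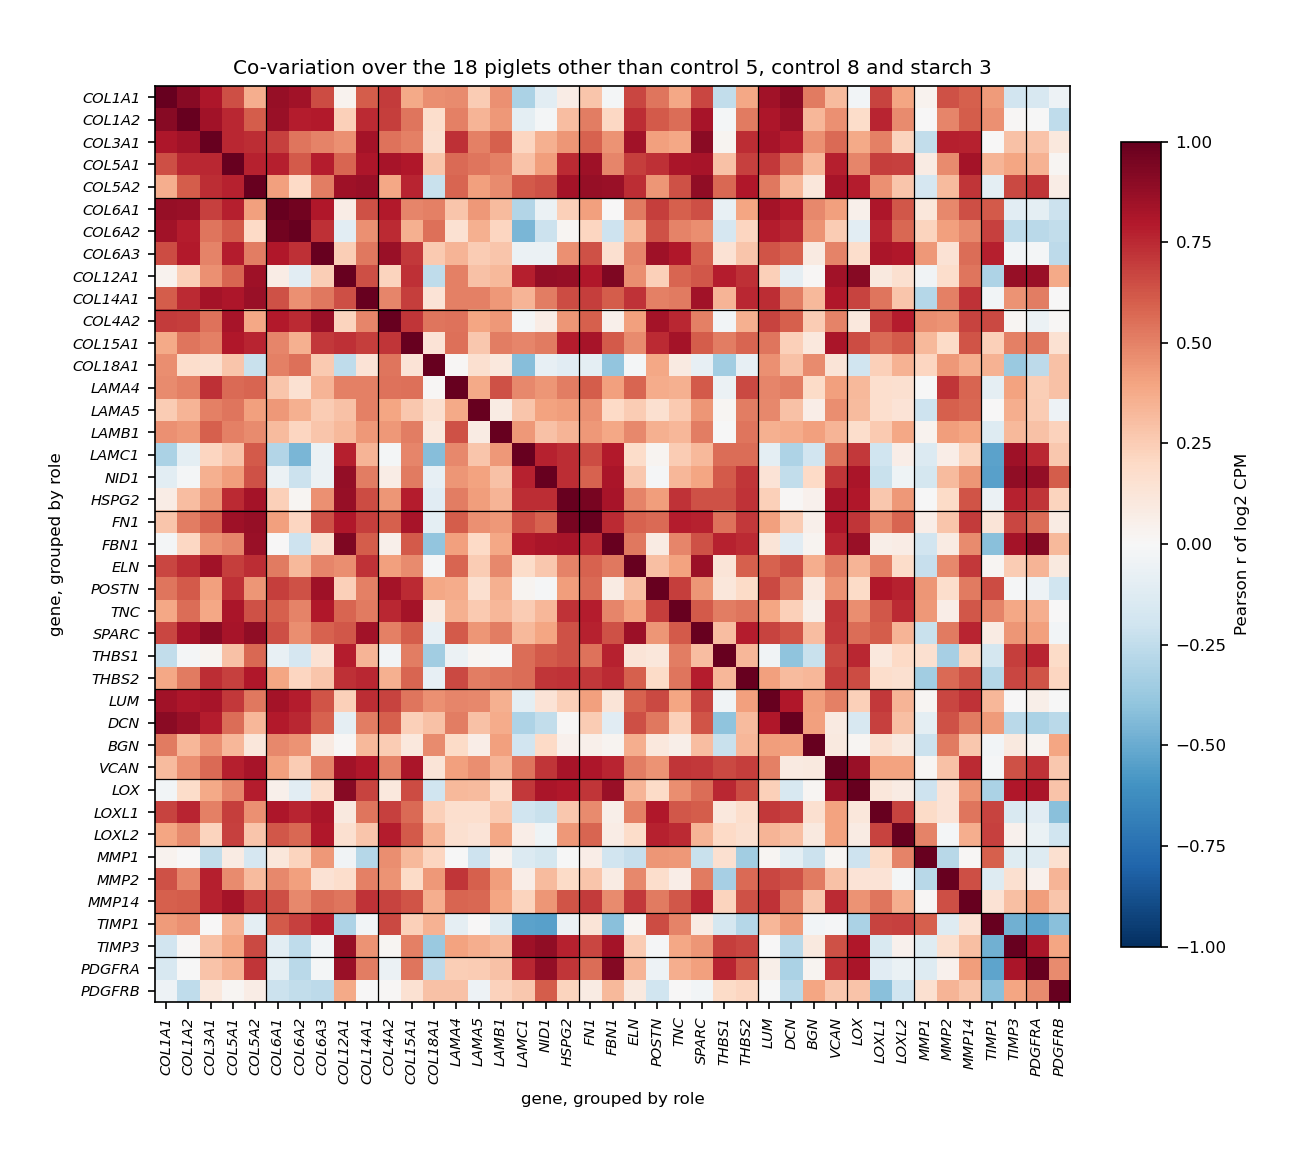
Pearson r of log2 CPM for each pair of matrix genes over 18 piglets, without control 5, control 8 and starch 3; genes are in the same order on both axes, grouped by role. Most cells are red, COL6A1 with COL6A2 is highest at 0.96, and the row of TIMP1 holds the most negative values, down to -0.55 with NID1.

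Each of the 41 genes was compared with scores of smooth muscle, endothelial, epithelial, and granulocyte and inflammation genes, 164 pairs in all. A score is the mean of log2 CPM of the genes of a list that passed the filter on low counts, each centred over piglets. These were 10 smooth muscle, 10 endothelial, 9 epithelial and 5 inflammation genes. The inflammation score thus rests on 5 of 9 matched genes, from a list that summed to at most 76.1 CPM in the 18 piglets. Since the libraries low in absorptive enterocyte markers also stood apart in the inflammation genes, r with these scores is not given over all 21 piglets. Only the number of pairs past the threshold over all 21 piglets is given, in the closing section. Over the 18 other piglets 15 of 164 pairs had an adjusted p below 0.05 for both Pearson's r and Spearman's rho (two-sided permutation tests, 100000 resamples, Benjamini-Hochberg over 164 pairs). Genes outside the set were not compared with these scores, so the counts do not set the matrix genes apart from other genes.

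Smooth muscle markers went with 7 matrix genes. COL6A3 had r = 0.80 and rho = 0.76 (permutation p = 8e-05 and 0.00046, adjusted p = 0.00574 and 0.0151), and r = 0.74 without the 2 piglets farthest from the median score. COL4A2 had r = 0.77 and rho = 0.84 (permutation p = 0.00014 and 7e-05, adjusted p = 0.00574 and 0.0115), and r = 0.74 without the farthest piglets. LOXL2, POSTN, TNC, COL5A1 and FN1 had r of 0.74, 0.73, 0.66, 0.64 and 0.64, and 0.66, 0.63, 0.55, 0.59 and 0.54 without the farthest piglets. All 7 r values were also positive within each diet, with those libraries included, but this does not set the 7 apart. Within control r was positive for all 41 genes (0.058 to 0.959), and within starch it ran from -0.463 to 0.842. Both adjusted thresholds were passed by 10 of 41 genes within control and 1 of 41 within starch.

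Endothelial markers went with NID1 (r = 0.69, rho = 0.70, permutation p = 0.00189 and 0.00206, adjusted p = 0.029 and 0.0291), COL12A1 (r = 0.67) and LAMA4 (r = 0.62), a basement membrane chain of vessels. Without the farthest piglets these r values were 0.64, 0.73 and 0.82. Epithelial markers went with TIMP1 (r = 0.77, rho = 0.76, permutation p = 0.00019 and 0.00037, adjusted p = 0.00623 and 0.0151), and r was 0.72 without the farthest piglets. They went in the opposite direction with FBN1 (r = -0.66, rho = -0.77) and PDGFRA (r = -0.66, rho = -0.78), which had -0.78 and -0.72 without the farthest piglets. Inflammation genes went with TNC (r = 0.77, rho = 0.66, permutation p = 0.00013 and 0.00377, adjusted p = 0.00574 and 0.0386) and LOXL2 (r = 0.70, rho = 0.70). Without control 4 and starch 4, the farthest on that score, r was 0.62 for TNC and 0.50 for LOXL2.

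Ratios of partner genes within a piglet were compared on the FPKM scale. COL1A1 exceeded COL1A2 1.85-fold ± 0.248 (SD over 21 piglets). COL3A1 exceeded COL1A1 1.72-fold ± 0.372, with the lowest ratios in control 5 (1.16), control 8 (1.14) and starch 3 (1.14) and 1.32 to 2.41 in the others. LAMA4 exceeded LAMA5 4.89-fold ± 1.16 and PDGFRB exceeded PDGFRA 1.58-fold ± 0.572. MMP1 to TIMP1 ran from 0.699 in starch 3 to 7.08 in starch 5. Of the 5 log2 ratios 0 passed the test of diet (two-sided permutation test, smallest adjusted p = 0.564 over 5 ratios, for COL1A1 to COL1A2 with means of 0.94 in control and 0.82 in starch piglets).

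Transcripts of 1 gene were divided by the authors' estimate. FN1 was split between transcripts of 7389 and 7143 coding bases, with 51.8% ± 4.23 and 48.2% ± 4.23 of its expected count. A transcript of 5622 coding bases, the shortest of 10 listed, carried 76.6% ± 5.99 of TNC, and one of 7209 coding bases 70.4% ± 10.7 of VCAN. The 3 transcripts of BGN each had 33.3% and the pair of PDGFRB 50% each in every piglet, so the estimate does not separate them. Of 15 genes whose shares could be compared, 0 passed the test of diet (two-sided permutation test, Benjamini-Hochberg over 15 shares). For COL15A1, NID1 and THBS2 among them, the transcript tested had the same mean share and SD as another of equal coding length. The estimate does not separate these transcripts either. The smallest p were those of COL14A1, where the share of its main transcript was 89.1% ± 4.42 in control and 82.2% ± 9.55 in starch piglets (permutation p = 0.0358, adjusted p = 0.273), and ELN, with 85.2% ± 9.52 and 76.3% ± 8.59 (permutation p = 0.0364, adjusted p = 0.273).

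Other genes of matrix assembly showed no call either. Of collagen folding and processing genes 0 of 19 tested passed in either direction, with a median fold change of -0.06, and those with the smallest p were PCOLCE2, an enhancer of procollagen cleavage (0.38, unadjusted p = 0.197, edgeR), and P4HA2, a prolyl hydroxylase subunit (-0.21). Of 43 other matrix proteins 0 passed (median -0.08), led by MFAP5 (0.29) and COL27A1 (-0.20). Of 16 other proteases and inhibitors 0 passed (median -0.14), led by PLAT, tissue plasminogen activator (0.39, unadjusted p = 0.0755, edgeR), and ADAMTS9 (-0.36). In the pathway of transforming growth factor beta, a main inducer of matrix genes, 0 of 19 passed (median -0.03), led by LTBP2 (0.31) and TGFBI (-0.21). Of 4 PDGF ligands 0 passed. Of 20 matrix receptors 0 passed (median -0.09), led by ITGB6 (-1.07, unadjusted p = 0.0877, edgeR) and ITGB5 (-0.22), integrin subunits. The value of ITGB6 rested on control 5, which had 25.29 CPM against a control median of 1.549 CPM. It was -0.34 without control 5 and 0.18 without control 5, control 8 and starch 3. For PLAT and PCOLCE2 the fold changes without those libraries were 0.40 and 0.53.

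The genes most like the matrix set were sought among 11243 other genes with a symbol, by Pearson r with the mean centred log2 CPM of the 41 genes over 21 piglets. The 10 highest were COL5A3 (0.95), a type V collagen chain, MYO1C (0.95), SYDE1 (0.94), PCDHGA4 (0.94), CRISPLD2 (0.92), SDK1 (0.92), EHD2 (0.92), PDE1C (0.92), SELENON (0.92) and PXDN (0.92), peroxidasin, which cross-links type IV collagen. Over the 18 piglets other than control 5, control 8 and starch 3 their r lay lower, from 0.73 for PDE1C to 0.87 for EHD2. The median over all genes compared was 0.03.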

How the data were processed

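Each piglet has 1 table of transcripts, and per the file headers it gives a length, an expected count, which is an estimate and can be fractional, and an FPKM value. The deposited expected counts were not normalised, while the authors had scaled the FPKM values for length and depth. Nearly all lengths are multiples of 3 (99.96 to 99.97% per file), so they are coding lengths. The submitters' processing notes name HISAT and DESeq2. Their versions, as well as the genome build, counting program and strand setting, were not given in the sources used here, so no coordinates or sequences are reported, and antisense reads cannot be told apart.

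Expected counts were summed per gene and rounded, and transcripts without a row were taken as 0. Symbols came from a table of pig gene names (14276 of 18661 genes matched). Diets were compared with edgeR 4.0.16 (R 4.3.3), with TMM scaling, filterByExpr (minimum count 10, minimum total 15), diet as the only term, and Benjamini-Hochberg adjustment over 13127 genes. Log2 CPM used a prior count of 2. Permutation tests were two-sided with 100000 resamples. Alternatives were upper-quartile scaling, DESeq2 1.42.0, no filter, the replicate number as a block, a smooth muscle covariate, and leaving out single piglets or control 5, control 8 and starch 3. Refits of the blocked piglets without the block, and of ratios, shares and other fold changes without piglets, were chosen after seeing the data. The edgeR fit was checked on simulated counts, and the permutation test of correlation on simulated normal values.

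The matrix genes, marker lists and pathway lists were chosen with earlier results of these data known. Full statistics are given for the 4 genes with the smallest p in each direction, and values by diet for the most abundant gene of each role and the 4 with the largest SD of log2 CPM, beside others chosen after their values were seen. Of each pathway list the 2 genes with the smallest p are named. Totals of 6719264 to 8610458 counts make counting error small for abundant genes and larger for LOX or TIMP3.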

Additional observations from a re-analysis of the deposited data

Results flagged for a closer look

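In the control group, 5 matrix genes had 1 piglet far above the others, with a gap to the next piglet larger than 0.466 of the whole range of the 10 control piglets. COL12A1 had 347 CPM in control 5, and the next was control 9 with 130 CPM (gap 0.679 of the range). LOX had 17.62 CPM in control 5 and 7.18 CPM in control 9 (0.636). LAMC1 had 248.9 CPM in control 5 and 150.5 CPM in control 10 (0.551). THBS1 had 100.2 CPM in control 5 and 52.2 CPM in control 8 (0.540). TIMP1 had 921.5 CPM in control 8 and 453.1 CPM in control 5 (0.520). For normally distributed values chance alone passes this limit in about 1 of 20 groups. CPM can be skewed, as for TIMP1 with a control median of 40.1 and mean of 169.6 CPM, so the rate for these data is not known. In all 62 groups were examined, and the genes vary together, so the cases are not independent. The 11 starch piglets were not examined in this way, since the limit is set for at most 10 samples.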

How the results depend on the processing

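No alternative gave a matrix gene past the adjusted threshold. The median fold change of the 41 genes ran from -0.22 (without starch 3) to 0.02 (without control 5, control 8 and starch 3, and also without control 5 alone). Leaving out each piglet in turn gave -0.021 to 0.123 for COL5A2, -0.28 to 0.34 for THBS1, -0.12 to 0.19 for LOXL2, -0.65 to -0.03 for COL12A1, -0.0531 to 0.073 for the log2 ratio of LAMA4 to LAMA5 (0.03 over all 21) and -1.16 to 0.578 percentage points for the FN1 share (-0.371 over all 21). LOXL2 was -0.036 with the smooth muscle covariate, and the LAMA4 to LAMA5 ratio was -0.0259 without control 5, control 8 and starch 3. In these cases the cause was not tested. Without those 3 piglets VCAN was 0.00 and COL12A1 -0.12.

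Pairs of a matrix gene and a marker score past the threshold fell from 61 over all 21 piglets to 15 over 18, 13 within control and 2 within starch piglets, each a smaller number of piglets, and were 75 with upper-quartile scaling. Genes with an unadjusted p below 0.05 numbered 174, and 524 without the filter on low counts, 382 without the 3 piglets, 295 with the smooth muscle covariate and 302 without starch 3.

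Numbers 1 to 10 occur in both diets, but the deviations of same-numbered piglets correlated from -0.337 to 0.485, with 4 of 10 pairs over 0.1, so the numbers were not taken as pairs. With the replicate number as a block 0 genes were called, and the median of the matrix genes was -0.05, beside -0.09 for the same piglets without the block. Depth limits LOX, LOXL1 and TIMP3 most, the genes with the fewest counts.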
